A study of Mus musculus with 2 samples.

Results

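The genes described here are 7 genes of MHC class II antigen presentation: the class II chain genes H2-Aa, H2-Ab1 and H2-Eb1, the invariant chain gene Cd74, the chaperone genes H2-DMa and H2-DMb1, and Ciita. They were taken by name, and each had exactly 1 feature (a measured transcript cluster of the array). In all, 22180 genes were named alone by a feature, 6 of the 7 members among them. The Cd74 feature also names the microRNA gene Mir5107, so the signals of the 2 cannot be told apart there. The RNA was that of flow-sorted alveolar macrophages, which live on the air side of the lung, from mice aged 8 to 10 weeks. Of the 2 Affymetrix arrays of the series, 1 was the Lysm-Cre control and the other was labelled Lysm-Cre Ssu72fl/fl. Both genotypes carry Cre under the lysozyme 2 gene, which drives it in myeloid cells and not in alveolar macrophages alone, and only the second is labelled with the floxed Ssu72 allele. No source used here gives the strain, the sex or how many mice stand behind an array. Since each genotype has 1 array, the genotypes could not be tested against each other, no value has a replicate check, and precision is limited by the number of arrays.

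MHC class II molecules present peptides from ingested material to CD4+ T cells. An alpha and a beta chain (H2-Aa with H2-Ab1 in the molecule I-A, and H2-Eb1 with an E alpha chain in I-E) assemble in the endoplasmic reticulum on the invariant chain, which Cd74 encodes and which blocks the peptide groove and directs the complex to endosomes. There the invariant chain is cut down to a fragment, and H2-DM, made of the H2-DMa and H2-DMb products, exchanges that fragment for a peptide. Ciita is the coactivator that turns the class II genes on, by docking on factors bound to the paired X and Y boxes of their promoters. Alveolar macrophages are known for low class II surface levels compared with lung dendritic cells and interstitial macrophages.

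The promoter windows of members with a reference entry are shown because the X and Y boxes are the sequences through which Ciita reaches these genes. RefSeq windows (GRCm38.p6), from 250 bases before to 50 after a gene's start, were matched for 4 of the 7 members: H2-Aa, H2-Eb1, H2-DMb1 and H2-DMa. H2-Aa lies at chr17:34287774-34288073 (minus strand), H2-Eb1 at chr17:34305617-34305916 (plus strand) and H2-DMb1 at chr17:34152941-34153240 (plus strand). Each is printed in the direction of the gene, with the X box core GNAAC and the Y box TGATTGG in capitals.
H2-Aa: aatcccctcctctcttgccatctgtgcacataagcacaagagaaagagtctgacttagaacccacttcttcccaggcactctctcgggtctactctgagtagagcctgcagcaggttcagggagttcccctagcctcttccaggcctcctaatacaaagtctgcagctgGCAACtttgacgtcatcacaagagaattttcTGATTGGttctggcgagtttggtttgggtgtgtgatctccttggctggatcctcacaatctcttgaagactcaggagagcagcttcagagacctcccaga
H2-Eb1: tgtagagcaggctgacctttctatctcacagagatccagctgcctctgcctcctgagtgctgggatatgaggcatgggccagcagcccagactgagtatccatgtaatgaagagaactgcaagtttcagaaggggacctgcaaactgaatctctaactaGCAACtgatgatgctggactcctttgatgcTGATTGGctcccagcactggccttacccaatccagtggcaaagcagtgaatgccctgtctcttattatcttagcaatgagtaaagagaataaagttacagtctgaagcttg
H2-DMb1: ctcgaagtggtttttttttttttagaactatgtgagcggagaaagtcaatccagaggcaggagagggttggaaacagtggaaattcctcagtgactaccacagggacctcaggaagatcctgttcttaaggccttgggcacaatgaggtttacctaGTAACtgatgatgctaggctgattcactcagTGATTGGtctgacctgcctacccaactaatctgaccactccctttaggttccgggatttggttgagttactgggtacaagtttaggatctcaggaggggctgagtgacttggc
In all 3 windows the core came before the Y box, at a start-to-start distance of 31 bases in H2-Aa and H2-DMb1 and 30 in H2-Eb1. The Y box began 50 bases before the gene start in H2-Aa, 61 in H2-Eb1 and 63 in H2-DMb1. The letters TGATTGG, searched on both strands, were in 7.82% of 32851 promoter windows of the same length, and the shorter ATTGG, which they contain, in 37.4%. GNAAC followed by TGATTGG on the same strand, at a start-to-start distance of 20 to 45 bases, was in 0.715% of windows. Neither of the 2 windows listed for H2-DMa held TGATTGG. The arrangement was not particular to members: the class II genes H2-Oa, H2-Ob and H2-Eb2 had it too, at 31, 28 and 30 bases. The window of H2-DMb2 held TGATTGG without it. These letters and this distance were chosen after looking at the windows, so a match is a description.

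All values are deposited log2 values, and every difference is the array labelled Ssu72fl/fl minus the Lysm-Cre array. Ssu72 itself read 4.86 in the control and 5.0 in the array labelled Ssu72fl/fl (0.14), so the targeted gene was not lower and every direction here rests on the label alone. No source used here says whether its probes lie in the floxed exons, so the feature may check nothing. The floor, below which a signal is treated as background, was the median of all values, 4.65. The 13015 genes above it on at least 1 array were compared. Bright features as a whole were lower on the array labelled Ssu72fl/fl: the brightest 1% of features began at 8.05 in the control and at 7.66 in the other array. Each member is therefore set beside the single-gene features nearest to it in mean signal, up to 100 dimmer and 100 brighter. The level-adjusted difference is the member's difference minus the median of those neighbours, and the spread is their robust SD (scaled median absolute deviation), which describes scatter between genes and not between mice.

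Class II genes were lower on the array labelled Ssu72fl/fl for 5 of the 6 compared members: H2-Ab1, H2-Aa, H2-Eb1, Cd74 and H2-DMa, of which Cd74 (0.0058) and H2-DMa (0.010) turned to the other side of 0 after quantile normalization. Ciita was higher, and H2-DMb1 was below the floor on both arrays and was not compared. The median difference of the 6 was -0.52, against -0.0068 over all compared genes, of which 51.9% were lower. The 5 lower members were all bright, with mean levels from 6.85 to 9.29, and at that signal most genes were lower: 90.5% of 275 genes, with a median of -0.44. A count of 5 lower members is therefore near the background for their signal. At a 1.5-fold difference 2 members passed, H2-Ab1 and H2-Aa, against 1.37% of all compared genes and 29.5% of genes of the same signal. At a 2-fold difference 1 member passed, H2-Ab1, against 0.0845% of all compared genes and 3.27% of genes of the same signal.

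After level adjustment 5 of the 6 compared members were still below 0, where 50.5% of genes of the bright members' signal were, but 3 of them by little. Only H2-Ab1 was still at least 1.5-fold lower, against 3.27% of genes of that signal. The median over the 6 became -0.089. H2-Ab1 thus lay well below its neighbours, H2-Aa in the lower part of its own, H2-Eb1, Cd74 and H2-DMa close to theirs, and Ciita above its own.

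**Figure D1:**
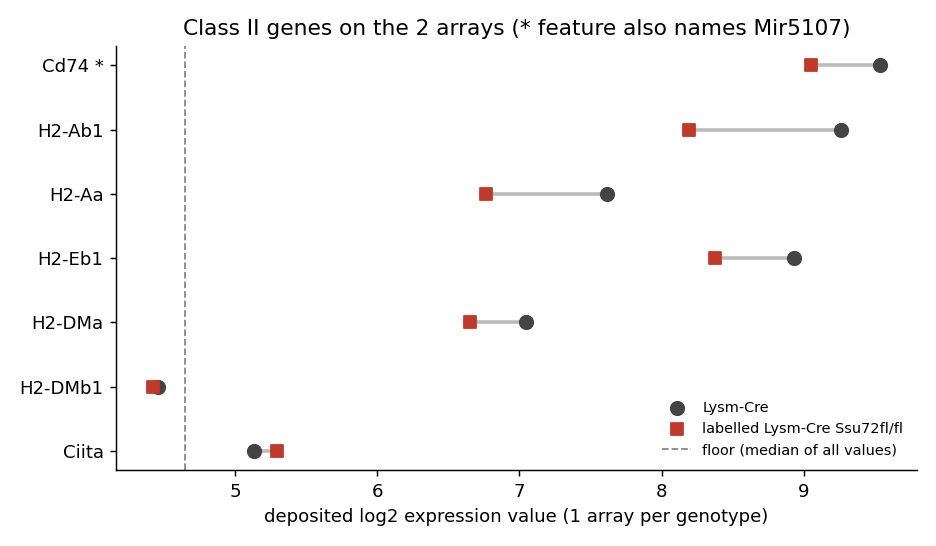
Deposited log2 value of each class II gene on the Lysm-Cre array (circle) and on the array labelled Lysm-Cre Ssu72fl/fl (square), with the floor of 4.65 as a dashed line; there is 1 array per genotype, so no error bars. The longest line is that of H2-Ab1, from 9.26 to 8.19; H2-DMb1 lies left of the floor on both arrays, and Ciita has its square to the right.

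H2-Ab1, the beta chain of I-A, read 9.26 in the control and 8.19 in the array labelled Ssu72fl/fl. That is a difference of -1.07, or 2.10-fold lower, against a spread of 0.25 among 169 neighbours with a median of -0.43. The mean signals of these neighbours ran from 7.56 to 13.1. The level-adjusted difference was -0.64. Of those 169 neighbours only the chemokine gene Ccl3, at 8.15 and 6.98, had a lower difference (-1.17). The share of neighbours below H2-Ab1 was 0.592%, but it was 6.00% when unnamed features and features naming several genes were counted among the neighbours. Among the other 274 genes of the bright members' signal range, 4 were lower than H2-Ab1: Ccl3, the gamma-secretase subunit gene Psenen (-1.16), Astx5 (-1.14) and Mir101c (-1.14).

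H2-Aa, the alpha chain that pairs with H2-Ab1, read 7.62 in the control and 6.76 in the other array. The difference was -0.86, or 1.81-fold lower, against a spread of 0.27 among 200 neighbours with a median of -0.45. The level-adjusted difference was -0.40, and 20 of the 200 neighbours (10.0%) were lower than H2-Aa. The 2 chains of I-A were thus the 2 lowest members, both beyond the spread of their neighbours. The difference of H2-Ab1 minus that of H2-Aa was -0.22, a gap smaller than either spread.

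H2-Eb1, the beta chain of I-E, read 8.93 in the control and 8.38 in the other array, a difference of -0.55. Its 172 neighbours had a median of -0.43 and a spread of 0.25, which leaves a level-adjusted difference of -0.12. Of those neighbours 52 (30.2%) were lower, so H2-Eb1 lay within the middle of them, though their mean signals ran from 7.56 to 13.1. The difference of H2-Ab1 minus that of H2-Eb1 was -0.52, between features of nearly the same mean signal (8.73 and 8.65). The array thus gave unequal differences for the beta chains of I-A and I-E. The size of this gap was not tested: the spread describes single features, and a gap between 2 of them can scatter more widely. The alpha chain gene of I-E, H2-Ea, which RefSeq lists as a transcribed pseudogene, read 4.50 and 4.54, below the floor on both arrays.

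Cd74, the invariant chain, read 9.54 in the control and 9.05 in the other array, a difference of -0.48. Its 146 neighbours had a median of -0.43 and a spread of 0.27. The level-adjusted difference was -0.058, and 61 neighbours (41.8%) were lower. Cd74 was thus not set apart from these neighbours, whose mean signals ran from 7.79 to 13.1. The ribosomal protein gene Rps6 (9.54 and 9.0) and the class I light chain gene B2m (9.54 and 9.17), near it in signal, differed by -0.55 and -0.37.

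H2-DMa, the alpha chain of the peptide exchange factor, read 7.04 in the control and 6.65 in the other array, a difference of -0.39 against a spread of 0.32. Its 200 neighbours had a median of -0.38, so the level-adjusted difference was -0.010. Of them 97 (48.5%) were lower, which puts H2-DMa in the middle of features of its signal. H2-DMb1, a beta chain of the same factor, read 4.46 and 4.42, below the floor on both arrays, and no direction is drawn from it. Its close copy H2-DMb2 read 4.72 on the control array and 4.51, below the floor, on the other. Because these copies are near-identical, signal may be divided between their features.

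**Figure D2:**
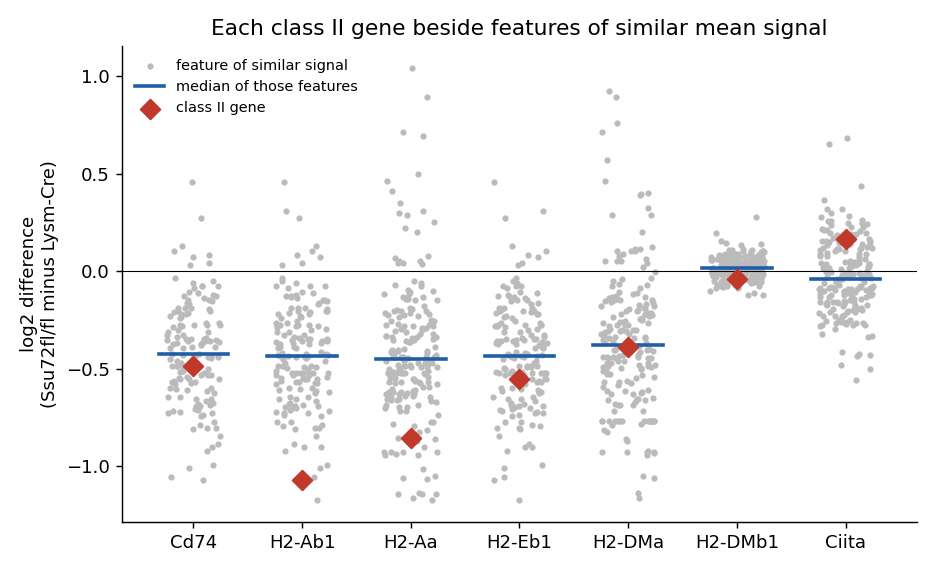
Log2 difference of each class II gene (diamond) beside those of the features nearest to it in mean signal (grey points, 146 to 200 per gene), with their median as a blue bar. The diamond of H2-Ab1 is below all but 1 of its grey points and that of H2-Aa is above 20 of its 200, while those of Cd74, H2-Eb1 and H2-DMa lie among their grey points.

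Ciita, the class II coactivator, read 5.13 in the control and 5.30 in the array labelled Ssu72fl/fl (0.17). Its control signal was 0.48 above the floor. The spread among its 200 neighbours was 0.20 around a median of -0.041, and the level-adjusted difference was 0.21. Of those neighbours 169 (84.5%) had a lower difference, so Ciita was toward the upper side of features of its signal, at about the size of the spread. Ciita and the I-A genes thus differed in opposite directions on these 2 arrays, but the deposited difference of Ciita (0.17) was smaller than its spread (0.20). At a signal this close to the floor a difference may understate a true fold change.

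**Figure D3:**
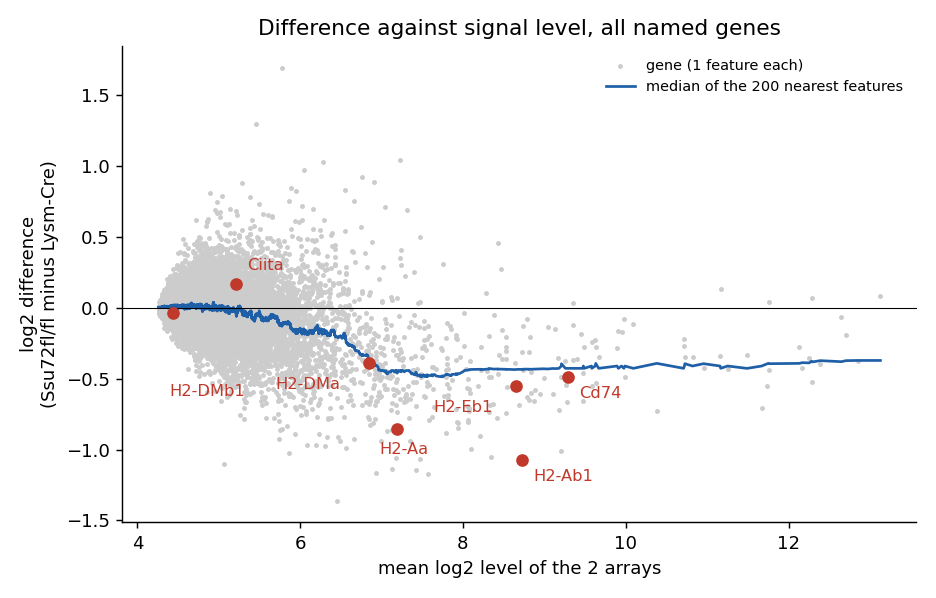
Log2 difference against the mean log2 level for all named genes (grey), with the median of the 200 nearest features as a blue line and the class II genes in red. The line is near 0 for dim genes and near -0.43 at the level of H2-Ab1, H2-Eb1 and Cd74; relative to it H2-Ab1 lies at -0.64 and Ciita at 0.21.

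With 2 arrays, likeness between genes is only the distance between their pairs of values. The named genes nearest to H2-Ab1 in both signals were Mir680-2, at a distance of 0.28, Erdr1 and Ell2, both at 0.32. The differences of these genes ran from -0.68 to -0.63, so none of them came near that of H2-Ab1. Near H2-Aa lay Cdc42, a small GTPase gene of the actin cytoskeleton, at 7.66 and 6.80 and a distance of 0.053. It was followed by Vmn1r103 (-0.74) and Snord73a (-0.86), and Cdc42 itself differed by -0.85. The nearest to H2-Eb1 were Mir680-2, Scarna2 and Snora74a, and to Cd74 Rps6, Snord16a and B2m, at distances of 0.056 to 0.16. Immediately above and below Ciita in mean signal were Tmem183a (-0.25), Mgrn1 (-0.14), Dnajb1 (0.014) and Zcchc14 (-0.13). Those beside H2-DMa were Rpsa (-0.68), Ifrd1 (-0.40), Hpcal1 (0.089) and Serinc3 (-0.79), which shows how widely genes of 1 signal scattered. Beside H2-DMb1, at the floor, Trat1, Pcdhb18, Slc26a8 and Eif2c5 differed by 0.0054 to 0.074. Next to H2-Aa in mean signal were Pik3ap1 (-0.50), Cbx3 (-0.69), Siva1 (0.069) and Vmn1r103 (-0.74). Mir449b (-0.31), Snord89 (-0.12) and Ell2 (-0.63) were beside H2-Ab1, and Taf1d (-0.66) and Rnu12 (0.032) beside Cd74.

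Of the 5 lower class II members 4 lie in the class II region, and the other compared genes there were not lower as a group. The region was chosen after the values had been seen. In RefSeq order from H2-Oa to Btnl2 the region holds 17 genes, of which 13 were compared, 4 of them members. H2-Ab1, H2-Aa and H2-Eb1 are consecutive there. Of the 9 compared genes of the region that are not members, 4 were lower and 5 higher; their median was 0.011, with a range from -0.14 for the immunoproteasome subunit gene Psmb8 to 0.22 for the peptide transporter gene Tap1. Tap1 read 5.28 and 5.5, and Psmb9, next to it, 4.89 and 5.07. These genes were all dimmer than the lower members, at signals where the neighbour median was nearer 0, so the 2 sets are not matched in signal. The other class II chain genes of the region were dim: H2-Oa read 5.04 and 4.95, H2-Ob 4.95 and 4.95, and H2-Eb2 4.73 and 4.87.

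**Figure D4:**
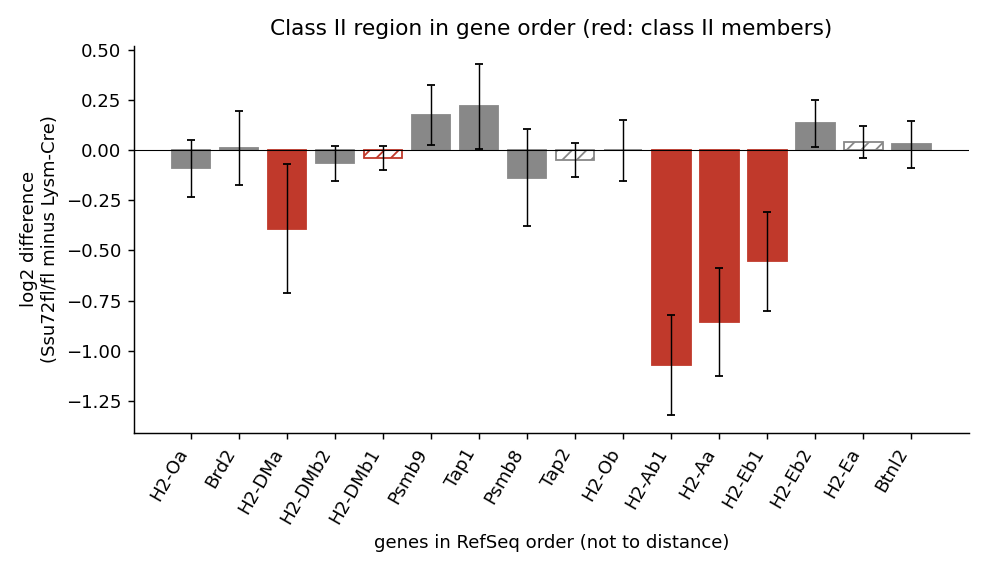
Log2 difference of the 16 genes with a feature in the class II region, in RefSeq gene order, with class II members in red, hatched bars for genes below the floor on both arrays, and error bars showing the robust SD among features of similar signal (1 array per genotype). The bars of H2-Ab1 (-1.07), H2-Aa (-0.86) and H2-Eb1 (-0.55) stand side by side; the bars of Tap1 and Psmb9 point upward.

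Genes of class II transcription were compared for 13 of 15, and 10 were lower, 3 were higher and none was past 1.5-fold (median -0.090). After level adjustment 9 of the 13 were below 0. Of all compared genes 51.9% were lower and 1.37% at least 1.5-fold lower. Of genes of the bright members' signal the shares were 90.5% and 29.5%. The counts of this list and of those that follow describe the lists beside these shares. The genes behind the shares are not matched to the lists in signal. Of the RFX complex, which binds the X box, Rfx5 read 4.82 and 4.69 (-0.13 against a spread of 0.11) and Rfxank 5.67 and 5.41 (-0.27, level-adjusted -0.19 against 0.22). Rfxap was below the floor on both arrays. Of NF-Y, which binds the Y box, Nfya differed by -0.082 and Nfyc by -0.012, while Nfyb was below the floor on both arrays. The myeloid factor genes Cebpa (-0.47, level-adjusted -0.31 against a spread of 0.29) and Spi1 (-0.40, level-adjusted -0.24 against 0.31) were lowest. The coactivator genes Crebbp (-0.34) and Ep300 (at least 0.16 lower, being below the floor on 1 array), and Kat2b (-0.090) were lower too. Irf8 (-0.028), Creb1 (0.032), Irf4 (0.051) and Kmt2d (0.11) differed by less than their spreads.

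Interferon gamma is the main inducer of Ciita in macrophages. Of 8 compared genes of that route 5 were lower and 3 higher (median -0.11, level-adjusted -0.034). The kinase gene Jak1 read 6.47 and 5.88 (-0.59, and -0.43 after adjustment, beyond its spread of 0.31), the 1 gene of the list past 1.5-fold. Jak2 (-0.20), Ifngr1 (-0.19), Irf1 (-0.25) and Cxcl9 (-0.015) were the other lower genes. The inhibitor gene Socs1 (0.15), Ifngr2 (0.063) and Irf2 (0.068) were higher. Each of these 3 differences was smaller than the spread at its level.

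All 10 compared genes of antigen and invariant chain processing were lower, with a median of -0.51, and 8 were still below 0 after level adjustment, with a median of -0.23. Their median control signal was 7.58. Of genes of the bright members' signal 90.5% were lower, and 50.5% were below 0 after level adjustment. Lgmn, Ctsl, Ctsh and Sppl2a lay below the mean signals of 6.85 to 9.29 behind these shares, and Ctsd lay above them. The list is therefore not matched to the shares in signal, and the count of 10 lower genes is a description. Legumain, an endosomal protease encoded by Lgmn, read 6.92 and 6.01 (-0.91), and its level-adjusted difference of -0.70 was more than 2 spreads of 0.31. The cystatin C gene Cst3, an inhibitor of cathepsins, read 7.31 and 6.53 (-0.78, level-adjusted -0.39 against 0.32). Ctss, the protease that trims the invariant chain in many antigen-presenting cells, read 8.69 and 7.95 (-0.74, level-adjusted -0.31 against 0.26). Sppl2a, which clears the remaining invariant chain stub, read 5.28 and 4.93 (-0.35, against a spread of 0.17). Ctsb (-0.70) and the thiol reductase gene Ifi30 (-0.63) were past 1.5-fold as deposited, with level-adjusted differences of -0.23 and -0.15. Ctsl (-0.39) and Ctsh (-0.094) were lower, and Ctsd (-0.35, level-adjusted 0.081) and Ctsz (-0.39, level-adjusted 0.074) changed sign with the adjustment.

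Of 12 genes of class II traffic and turnover 9 were lower, with a median of -0.26 that became -0.064 after level adjustment. The late endosomal GTPase gene Rab7 (-0.65, level-adjusted -0.24 against a spread of 0.33) was the 1 gene past 1.5-fold. Of the ubiquitin ligases that remove class II from the surface, Marchf1 read 4.68 and 4.56 and Marchf8 4.79 and 4.86, both near the floor. The tetraspanin genes differed by -0.48 for Cd81, -0.34 for Cd9, -0.31 for Cd63, -0.019 for Cd82 and 0.13 for Cd37. Kif5b (-0.31), Dnm2 (-0.29), Ap2m1 (-0.22) and Ap1m1 (0.014) were the remaining members. After level adjustment Cd63 (-0.32 against a spread of 0.11) and Kif5b (-0.27 against 0.20) lay beyond their spreads, and the rest of the list within theirs.

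Costimulatory genes, which act beside class II in T cell activation, were lower in 6 of 7, with a median of -0.17 (level-adjusted -0.044). Cd86 read 4.96 and 4.71 (-0.25 against a spread of 0.12) and Icosl 4.94 and 4.75 (-0.19 against 0.12). Cd83 (-0.44, level-adjusted 0.0095), Cd274 (-0.17), Cd80 (-0.054), Pdcd1lg2 (at the floor) and Cd40 (0.042) were the others.

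The class I genes serve as a comparison from the same presentation machinery. Of 12 compared 8 were lower, with a median of -0.11 that turned to 0.043 after level adjustment and also after quantile normalization. The class I heavy chain gene H2-K1 read 7.0 and 6.82 (-0.18, and 0.22 after level adjustment, within its spread of 0.33). Calr (-0.64) and Canx (-0.62), chaperones of the endoplasmic reticulum, were the 2 genes of the list past 1.5-fold, with level-adjusted differences of -0.20 each. Tapbp (-0.30), Psmb8 (-0.14), Psmb10 (-0.086) and Pdia3 (-0.072) were lower. Tap1 (0.22), Psmb9 (0.17), Nlrc5 (0.061), the class I counterpart of Ciita, and Erap1 (0.046) were higher, and Tap2 was below the floor on both arrays. The difference between the class I and class II genes was not tested.

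**Figure D5:**
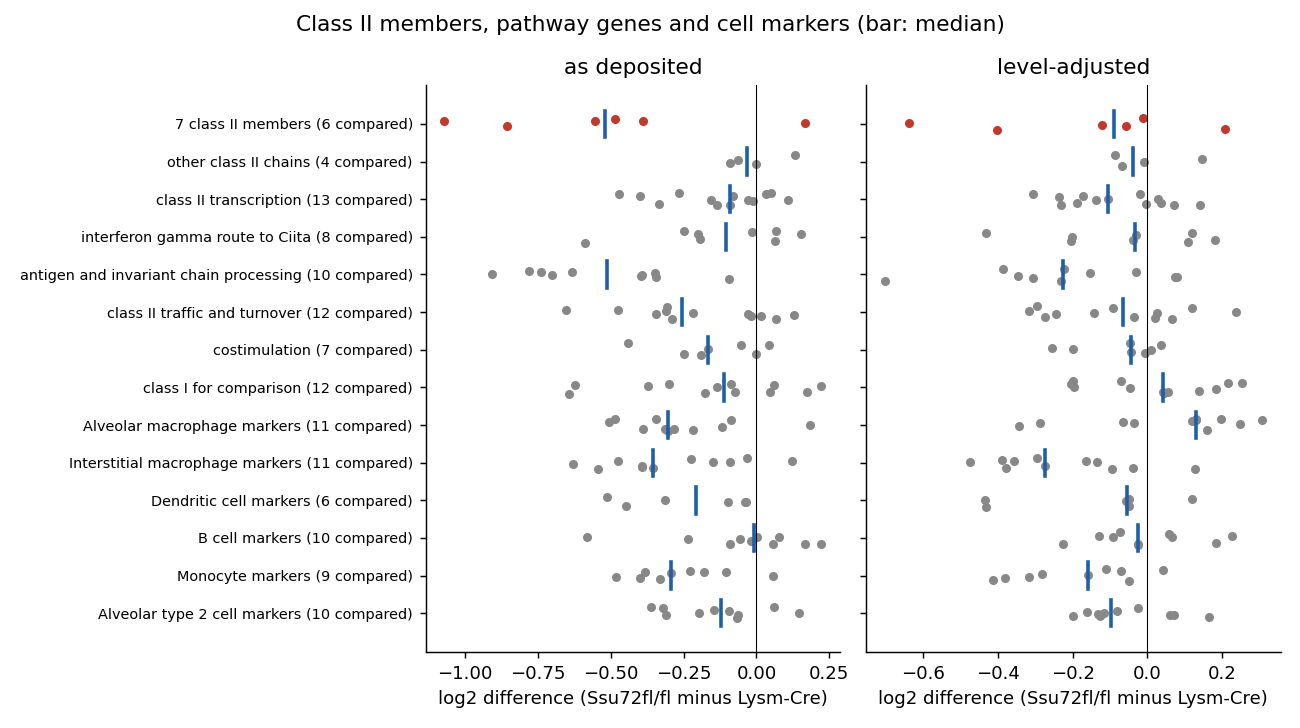
Log2 difference of each compared gene (points) in the class II members (red), the pathway lists and the cell marker lists, as deposited (left) and level-adjusted (right), with the median of each list as a blue bar. As deposited the class II members and the antigen processing genes have the lowest medians (-0.52 and -0.51); after level adjustment the interstitial macrophage markers have the lowest (-0.27).

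Class II genes are also expressed by other cells that a lung sort could hold, so markers of those cells were read on the same arrays. In bulk RNA, fewer cells of a type and less RNA per cell cannot be told apart. The marker counts stand beside 51.9% of all compared genes lower and 90.5% of genes of the bright members' signal. Of the latter 50.5% were below 0 after level adjustment. Neither set is matched to the marker lists in signal, and the compared interstitial macrophage markers were all dimmer than the bright members' range. All 11 alveolar macrophage markers with a feature were above the floor on both arrays, and 10 of 11 were lower (median -0.30), but after level adjustment 4 of 11 were below 0 and the median turned to 0.13 (0.098 after quantile normalization). Their summed linear signal was 2201 in the control and 1850 in the other array. Their ends were Marco (-0.51) and Itgax (-0.49), and Fabp4 (0.19) and Siglecf (-0.088). Interstitial macrophage markers, of a population with more class II, were lower in 10 of 11, with a median of -0.36. After level adjustment 10 of 11 were still below 0, and the median was -0.27. Their summed linear signal was 577 on the control array and 452 on the other, and none was below the floor on both arrays. Cx3cr1 (-0.63) and Tmem176b (-0.54) were lowest, and Folr2 (0.12) and Ms4a7 (-0.033) highest. Monocyte markers were lower in 8 of 9 (median -0.29, level-adjusted -0.16), from Nr4a1 (-0.48) and F13a1 (-0.40) to Ly6c2 (at least 0.11 lower) and Vcan (0.057), with a summed linear signal of 469 and 375. The part of these cells in the lower class II signal was not tested.

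Markers of dendritic and B cells were partly below the floor. Of 11 dendritic cell markers with a feature, 5 were below the floor on both arrays: Zbtb46, Xcr1, Itgae, Clec10a and Fscn1. The 6 compared were all lower (median -0.21, level-adjusted -0.053), from Ccl22 (-0.51) and Cd207 (-0.45) to Flt3 (-0.036) and Batf3 (at least 0.039 lower). The summed linear signal of all 11 with a feature, the 5 below the floor included, was 815 and 681. Most of it came from Cd209a, which read 8.97 and 8.65 and was singled out after its values were seen. Of 10 compared B cell markers 5 were lower and 5 higher (median -0.0085). The summed linear signal of the 11 with a feature, Ms4a1 included, was 467 and 410. Ighm read 7.46 and 6.88 and Cd22 5.29 and 5.05 at the lower end, and Blk (0.22) and Cd79a (0.17) were highest, while Ms4a1 was below the floor on both arrays. Alveolar type 2 cells, which also carry class II, had markers lower in 8 of 10 (median -0.12, level-adjusted -0.098), with a summed linear signal of 797 and 667. Sftpc (-0.36) and Sftpb (-0.32) were lowest and Etv5 (0.15) and Lamp3 (0.059) highest. The part of any of these cells in the class II values was not tested.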

How the data were processed

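Per the labels' protocols, Trizol-extracted total RNA, 6 ug of it, was turned into biotin-labelled cRNA for Affymetrix arrays. The authors deposited log2 expression values, 1 per feature and array; the log2 scale was inferred from their range of 4.23 to 13.5. MAS5 is named, with no role, per the submitters' processing notes. How background, normalization and centring were handled is not given in the sources. The medians of the 2 columns were 4.65 and 4.66; the direction of a difference follows the genotype labels.

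Of 33793 features, 23521 carried 1 gene symbol in the platform annotation, 1814 several and 8458 none; 23328 of the single ones were matched by Entrez identifier to a RefSeq gene table (GRCm38.p6). Each gene took its feature with the highest mean. Values below the floor, the 50th percentile of both arrays, were set to it, and a gene was compared if 1 array was above it. Such a value on 1 array makes the difference a bound. Neighbours were single-gene features, other class II genes included, and fewer than 100 lay above the brightest members. Some neighbours had identical differences, so a count of neighbours is not a count of independent genes. A called gene was past 2-fold or 1.5-fold; no p-value was computed. The adjustment was run on simulated data with an abrupt step in the differences and less scatter than the bright members' neighbours had. That run checks the calculation and not its behaviour on these arrays. Python 3.11.15, numpy 2.4.6, pandas 2.3.3 and matplotlib 3.10.9 were used.

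The 7 members, the gene lists and the rule for named genes (the members, their 2 nearest genes each way in signal, the 3 nearest in both signals for H2-Ab1, H2-Aa, H2-Eb1 and Cd74, all pathway list genes and the 2 ends of each marker list; predicted and clone-named genes left out as neighbours) were chosen with earlier results of these data known. Some genes of the lists are not analysed here.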

Additional observations from a re-analysis of the deposited data

How the results depend on the processing

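Median centring, the floors at the 25th and 75th percentiles and no floor kept the 5 compared bright members lower and Ciita higher; without a floor H2-DMb1 joined, for 6 of 7 lower. Features that name a gene alone gave 4 of 5 lower, since Cd74 has none. Quantile normalization left 3 of 6 members lower, 1 at 1.5-fold (H2-Ab1, -0.61) and 0 at 2-fold, with a median of -0.053, and turned Cd74 to 0.0058 and H2-DMa to 0.010. Level adjustment left 1 member at 1.5-fold and 0 at 2-fold, with a median of -0.089. Both settings remove the offset of bright features by construction. In place of the 2-fold threshold, 1.5-fold counted 2 members and 3-fold 0. The level-adjusted difference of H2-DMa turned to 0.031 with 100 neighbours and to 0.097 with neighbours from all features, and that of Cd74 to 0.0034 with neighbours from protein-coding genes. H2-Ab1 was between -0.64 and -0.59 and H2-Aa between -0.42 and -0.40 in the 5 neighbour settings run, and Ciita between 0.19 and 0.22. The share of neighbours below H2-Aa ran from 5.5% to 12.0%. No paired analysis was possible because each genotype has 1 array, and no array could be left out. Signal over background limits Ciita, 0.48 above the floor, and H2-DMb1, below it.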

Other observations

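Features of the H2-Q, H2-M and H2-T genes, class I and class I-like genes outside the lists, were looked at after the class II values had been seen. Of 28 such features 17 were above the floor on at least 1 array, and 12 of these were lower on the array labelled Ssu72fl/fl. Over all compared genes 51.9% were lower, a set not matched to these features in signal, so the count is a description only. H2-M2 read 5.35 and 4.70, a difference of -0.65 (level-adjusted -0.64) against a spread of 0.15. Features of the H2-Q group went both ways: 1 feature of H2-Q5 read 6.12 and 6.64 (0.51), and the other 5.15 and 5.08 (-0.067). Of 2 features that name H2-Q7, H2-Q8 and H2-Q9 together, 1 read 7.14 and 6.52 (-0.62) and the other 5.71 and 6.15 (0.44). These genes are close copies of each other, so their features are uncertain as measures of a single gene.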
